A study of Saccharomyces cerevisiae with 8 samples.

Results

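The small nucleolar RNAs (snoRNAs) of budding yeast, *Saccharomyces cerevisiae*, were followed through 8 total RNA libraries. They were taken as every row of the deposited table that carries the type snoRNA, which gave 77 of 11436 rows. Of these, 47 are box C/D snoRNAs, 29 are box H/ACA snoRNAs and 1 is NME1, the RNA of the enzyme RNase MRP, which the table lists under the same type. All 77 passed the filter on low values, and the smallest number of reads for any snoRNA in any library was 97.

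The libraries came from exponentially growing cells of strain background W303, with 2 libraries for each of 4 genotypes. GPD-SIR3 overexpressed SIR3, GPD-SIR3-A2Q overexpressed the A2Q point mutant of SIR3, SIR3Δ lacked SIR3, and WT was the wild type. SIR3 encodes a protein that binds nucleosomes and, with other Sir proteins, forms silent chromatin next to telomeres and over the unexpressed mating-type genes. Whether the libraries of a genotype were grown separately is not in the labels, and p-values here reflect no more than how these 8 libraries scatter. The labels do not describe the overexpression constructs beyond these names.

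The SIR3 row followed the labels, with scaled counts of 10730.4 and 13865 in GPD-SIR3, 13132 and 13217 in GPD-SIR3-A2Q, 39.1 and 36.8 in SIR3Δ, and 448 and 484 in WT. Recovered reads summed to 9847370 to 26668086 per library over all rows, and to 1773581 to 5886445 over the snoRNA rows. Rows overlap, so a read may be counted in several rows, and the first sum is not sequencing depth. A scaled count is a read count times 1 factor per library, set so that the rows of type gene sum to 7006670 in every library. A second scale, the share of the library's snoRNA sum, was used because the first is set by genes and not by snoRNAs. No snoRNA gene lies within 30 kb of a chromosome end, and the nearest to an end is SNR64 at 38.81 kb.

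Most snoRNAs are guides for the chemical modification of ribosomal RNA (rRNA). A box C/D snoRNA pairs with rRNA and directs the methyltransferase Nop1 to a ribose, and a box H/ACA snoRNA directs the pseudouridine synthase Cbf5 to a uridine. A few act instead, or also, in the cleavage of the rRNA precursor, among them U3 (from the genes SNR17A and SNR17B), SNR30, U14 (SNR128) and SNR10. Most yeast snoRNA genes have a promoter of their own, while others lie in polycistronic clusters or inside introns of protein genes, and their ends are then made by nucleases. Of the 77 rows, 52 were classed as independent, 17 as polycistronic and 8 as intronic.

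The sequences of 8 snoRNAs are shown because the results below turn on them. SNR190 had the highest level and SNR87 was the snoRNA that passed the test on scaled counts. SNR52 and SNR53 had the widest spread over the libraries, and SNR56 and SNR71 had a wide spread that went with the library number. SNR59 and SNR33 had some of the smallest spreads. All are given 5′ to 3′ on the strand of the RNA, from the reference genome of build R64. Capitals mark box C (TGATGA) and box D (CTGA) in the C/D snoRNAs and the ACA box in the H/ACA snoRNA SNR33.
SNR190: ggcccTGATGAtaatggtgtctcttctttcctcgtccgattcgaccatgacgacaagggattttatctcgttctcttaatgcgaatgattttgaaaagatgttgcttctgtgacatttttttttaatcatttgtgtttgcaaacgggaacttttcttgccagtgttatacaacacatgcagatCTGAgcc
SNR87: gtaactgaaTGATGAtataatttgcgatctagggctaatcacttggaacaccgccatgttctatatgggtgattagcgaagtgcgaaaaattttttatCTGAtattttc
SNR52: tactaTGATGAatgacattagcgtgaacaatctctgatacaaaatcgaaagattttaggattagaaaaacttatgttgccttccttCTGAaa
SNR53: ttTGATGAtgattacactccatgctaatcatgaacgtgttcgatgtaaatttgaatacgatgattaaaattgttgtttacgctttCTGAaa
SNR56: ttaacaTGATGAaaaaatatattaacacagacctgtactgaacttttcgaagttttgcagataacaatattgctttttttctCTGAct
SNR71: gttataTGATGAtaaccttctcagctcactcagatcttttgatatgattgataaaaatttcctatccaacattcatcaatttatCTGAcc
SNR59: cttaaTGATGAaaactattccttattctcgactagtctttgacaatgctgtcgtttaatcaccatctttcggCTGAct
SNR33: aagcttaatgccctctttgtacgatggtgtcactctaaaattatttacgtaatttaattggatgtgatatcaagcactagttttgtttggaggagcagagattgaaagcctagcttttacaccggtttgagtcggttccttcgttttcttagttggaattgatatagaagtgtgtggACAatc

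These genes lie at chrX:139761-139950, minus strand (SNR190), chrXI:431030-431138, minus strand (SNR87), chrV:431129-431220, minus strand (SNR52), chrV:61699-61789, plus strand (SNR53) and chrII:88190-88277, plus strand (SNR56). The other 3 lie at chrVIII:411228-411317, plus strand (SNR71), chrXVI:173827-173904, plus strand (SNR59) and chrIII:142364-142546, minus strand (SNR33). SNR59 lies in an intron of RPL7B, and the other 7 are not intronic. On the RNA strand, TGATGA in the first 25 bases together with CTGA in the last 25 was found in 36 of 47 C/D snoRNAs and in 0 of 29 H/ACA snoRNAs. An ACA exactly 3 bases before the end was found in 14 of 29 H/ACA snoRNAs and in 3 of 47 C/D snoRNAs. These are matches to letters in the annotated rows, and annotated ends can differ from the ends of the RNA.

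Each of the 7 C/D snoRNAs shown holds an unbroken complement of rRNA that covers a site its annotation names. SNR190 holds 10 bases against large-subunit rRNA positions 2395 to 2404, with G2395 as the named site, which the annotation calls predicted and not shown to be active. SNR87 holds 9 bases against small-subunit positions 433 to 441, with A436 as the named site. For SNR52, which the annotation also assigns a small-subunit site, the stretch was 10 bases at U2921 of the large subunit, and for SNR53 it was 11 bases at A796 of the small subunit. SNR56 (11 bases, G1428 of the small subunit), SNR71 (8 bases, A2946 of the large subunit) and SNR59 (14 bases, A807 of the large subunit) complete the set. SNR33 guides pseudouridylation at U1042 of the large subunit, per the annotation.

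The snoRNA rows together summed to 32.8% and 25.3% of the gene sum in GPD-SIR3, 29.5% and 34.6% in GPD-SIR3-A2Q, 32.6% and 31.9% in SIR3Δ, and 33.3% and 20.5% in WT. The lowest sum was that of the second WT library, while the first WT library was the second highest of all 8. The WT pair therefore spanned nearly the whole range, and every other genotype overlapped it. The log2 ratio of the group means was 0.11 for GPD-SIR3, 0.25 for GPD-SIR3-A2Q and 0.26 for SIR3Δ, each against WT, and −0.14 for GPD-SIR3 against GPD-SIR3-A2Q, none of them above the pooled SD of 0.29 within genotypes. Without the second WT library the ratio against WT was −0.20 for GPD-SIR3, −0.053 for GPD-SIR3-A2Q and −0.047 for SIR3Δ, and without the first WT library it was 0.50, 0.65 and 0.65. Each sum is relative to the gene sum of its library, so less snoRNA and more RNA from genes cannot be told apart.

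**Figure D1:**
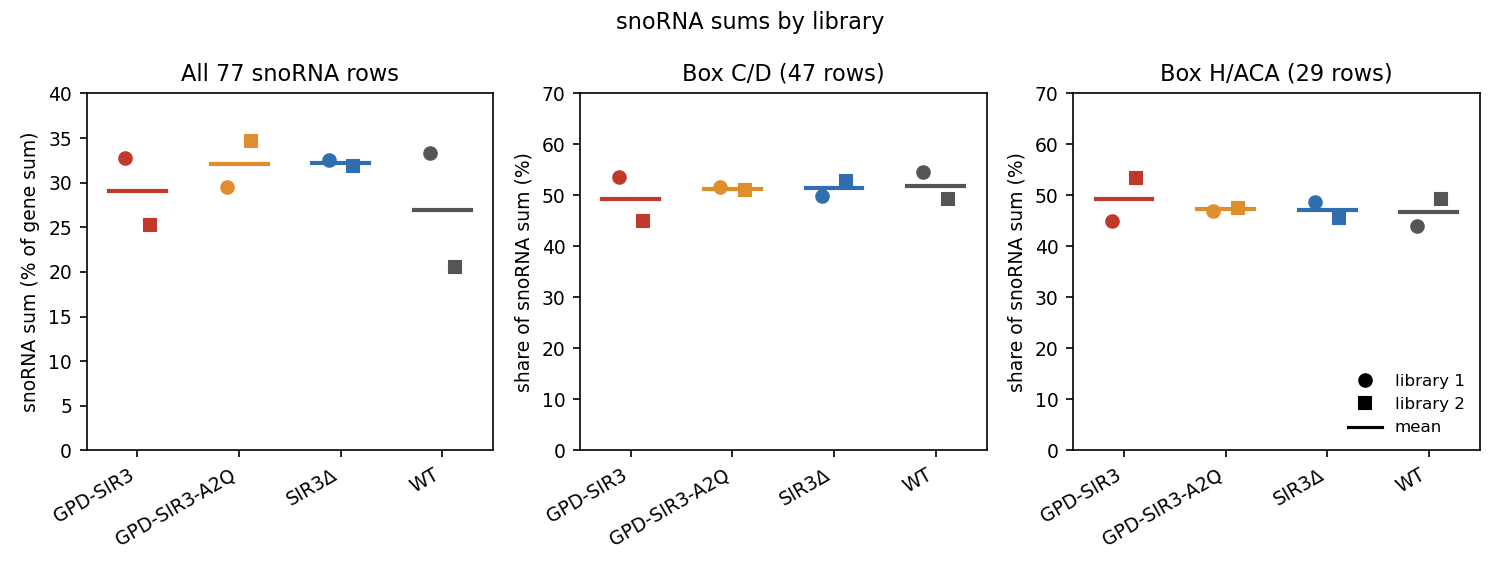
snoRNA sums by library. The left panel plots the sum of the 77 rows as a percent of the gene sum, the other panels plot the C/D and H/ACA rows as percents of the snoRNA sum, points are libraries and lines are group means. The second WT library is lowest at 20.5%, and neither class separates the genotypes.

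The balance of the classes did not separate the genotypes. C/D rows took 53.6% and 45.0% of the snoRNA sum in GPD-SIR3, 51.6% and 51.0% in GPD-SIR3-A2Q, 49.8% and 52.9% in SIR3Δ, and 54.6% and 49.3% in WT. H/ACA rows took 44.1% to 53.4%. In both classes the GPD-SIR3 pair overlapped the pair of every other genotype. NME1 had the smallest SD of log2 share of all 77 rows, 0.067, at 1.33% to 1.53% of the snoRNA sum in all 8 libraries.

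A few snoRNAs made up most of the sum. The 5 highest, SNR190, SNR17A, SNR30, SNR37 and SNR128, averaged 39.9% of it together, the 10 highest 61.8%, and the lowest 39 only 7.07%. SNR190, a polycistronic C/D snoRNA that precedes U14, had scaled counts of 427751 and 200793 in GPD-SIR3, 280674 and 341197 in GPD-SIR3-A2Q, 353103 and 381538 in SIR3Δ and 376151 and 172048 in WT. It was the highest row in every genotype, and within both GPD-SIR3 and WT 1 library had over 2 times the count of the other. Per kilobase of row it averaged 1666616 scaled counts, ahead of its neighbour SNR128 at 913047, SNR18 at 684295, SNR41 at 555228 and SNR9 at 483323.

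At the low end, SNR79, SNR59, SNR75, SNR74 and SNR67 each averaged under 0.03% of the snoRNA sum, and all 5 are C/D snoRNAs of 78 to 89 bases. SNR79, which guides a methylation of small-subunit rRNA, had 61.6 and 97.0 in GPD-SIR3, 82.2 and 123 in GPD-SIR3-A2Q, 90.7 and 70.2 in SIR3Δ and 63.98 and 59.4 in WT. Per kilobase the SNR79 row averaged 965 scaled counts. Libraries were made from RNA fragments of 100 to 200 bases, and fragments over 150 bases were kept after reverse transcription, per the labels' protocols. Of the 77 rows, 26 are under 100 bases, and 40 are under the 150 bases set after reverse transcription. Levels per kilobase therefore compare short and long snoRNAs only as these libraries caught them.

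The snoRNAs that act in rRNA cleavage were high and did not pass the test in any comparison on either scale. SNR17A, the more abundant U3 gene, had 177247 and 146537 in GPD-SIR3, 171919 and 166464 in GPD-SIR3-A2Q, 156896 and 136290.1 in SIR3Δ and 171394 and 136740.4 in WT. SNR17B, the other U3 gene, had 79011 and 64855 in GPD-SIR3, 111066 and 110181 in GPD-SIR3-A2Q, 104197 and 87264 in SIR3Δ and 97169 and 65215 in WT. SNR17B was lower in both GPD-SIR3 libraries than in both GPD-SIR3-A2Q libraries, and its change of −0.63 ± 0.21 (SE, as for all changes below) on the log2 scale had an adjusted p of 0.292 (limma). Both U3 rows span an intron. SNR17A and SNR17B share sequence, and 8.16% and 8.72% of their 50-base stretches occur elsewhere in the genome, so reads could be split between them, while none of the other 75 rows shares a 50-base stretch.

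SNR30, an H/ACA snoRNA needed for small-subunit rRNA, had 129486 and 132175 in GPD-SIR3, 131473 and 142993 in GPD-SIR3-A2Q, 128004 and 132891 in SIR3Δ and 121353 and 109186 in WT. Both WT libraries lay below all 6 others, and this difference was not called, with an adjusted p of 0.761 for GPD-SIR3-A2Q against WT (limma). SNR128 (U14), which both guides a methylation and acts in cleavage, had 148053 and 83457 in GPD-SIR3, 94733 and 137707 in GPD-SIR3-A2Q, 121893 and 114016 in SIR3Δ and 152263 and 68229 in WT. SNR10, an H/ACA snoRNA with both kinds of role, had 118538 and 83390.0 in GPD-SIR3, 96337 and 107595 in GPD-SIR3-A2Q, 104429.9 and 95635 in SIR3Δ and 93813 and 67782 in WT. For SNR128 and SNR10 the spread within GPD-SIR3 and WT was as wide as that between genotypes. SNR37, the fourth highest, had 125909.8 and 152806 in GPD-SIR3, 111324 and 139401 in GPD-SIR3-A2Q, 118892 and 112286 in SIR3Δ and 123783 and 89125 in WT, and its pairs of GPD-SIR3 and WT libraries did not overlap, with an adjusted p of 0.642 (limma).

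In GPD-SIR3 against WT, 1 snoRNA fell and none rose on the scaled counts, where 0.163% of all tested rows were called higher. This was SNR87, a C/D snoRNA with its own gene that guides methylation of A436 in small-subunit rRNA. SNR87 had scaled counts of 8347 and 10291 in GPD-SIR3, 24692 and 20155 in GPD-SIR3-A2Q, 10947 and 13782 in SIR3Δ and 16889 and 20509 in WT. Both GPD-SIR3 libraries lay below both WT libraries and below all other libraries, the SIR3Δ pair lay between, and the GPD-SIR3-A2Q pair overlapped WT. The group mean was 9319 ± 1375 in GPD-SIR3 against 18699 ± 2560.1 in WT (SD, n = 2 each), a log2 change of −1.01 ± 0.18 (SE) with an adjusted p of 0.0253 by limma. Of all 8566 tested rows 1.39% were called lower in this comparison, against 1 of 77 snoRNAs, so the share of snoRNAs called was near the background.

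The call on SNR87 against WT rests on few libraries. It was lost when either GPD-SIR3 library or either WT library was left out, with adjusted p of 0.151 and 0.0528 without the first and the second GPD-SIR3 library and 0.0521 and 0.171 without the first and the second WT library (limma). The log2 change stayed between −1.16 and −0.85. Leaving out any library of the other genotypes kept the call.

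As a share of the snoRNA sum, SNR87 made up 0.363% and 0.580% in GPD-SIR3, 1.19% and 0.831% in GPD-SIR3-A2Q, 0.480% and 0.617% in SIR3Δ and 0.724% and 1.43% in WT. The 2 GPD-SIR3 libraries held the lowest and the third lowest share, the groups did not overlap, and the log2 change was −1.15 ± 0.33 with an adjusted p of 0.0276 (limma). This call held in 2 of the 8 fits that leave out 1 library, those without the second GPD-SIR3 or the first WT library, and the adjusted p was 0.872 without the first GPD-SIR3 library and 0.512 without the second WT library (limma). Transcripts on the other strand at SNR87, XUT0936 and 11F-191, had scaled counts of 4.66 to 16.1, far below SNR87 itself. The neighbouring genes CAP1, SFT1 and RPL14A were not called in any comparison.

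On that scale 6 snoRNAs were lower in GPD-SIR3 than in WT, all of them C/D snoRNAs under 150 bases, against 1.98% of all tested rows lower and 0.128% higher. Besides SNR87 they were SNR52, SNR53, SNR39B, SNR72 and SNR62, and all 5 of these guide rRNA methylation, SNR53 in the small subunit, SNR52 in both subunits and the other 3 in the large subunit. SNR52 made up 0.0619% and 0.210% in GPD-SIR3, 0.0665% and 0.475% in GPD-SIR3-A2Q, 0.278% and 0.383% in SIR3Δ and 0.598% and 0.489% in WT. Both GPD-SIR3 libraries and the first GPD-SIR3-A2Q library were low, and both WT libraries were high. The log2 change was −2.25 ± 0.35 in GPD-SIR3 against WT, with an adjusted p of 1.58e-08 (limma).

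SNR53 had scaled counts of 80.1 and 289 in GPD-SIR3, 139 and 974 in GPD-SIR3-A2Q, 554 and 537 in SIR3Δ and 952 and 582 in WT. As a share of the snoRNA sum its change in GPD-SIR3 against WT was −2.42 ± 0.38, with an adjusted p of 2.76e-08 (limma). In both genotypes that overexpress a form of SIR3 the first library was several times lower than the second. SNR39B (−1.44 ± 0.36, adjusted p = 0.00448), SNR72 (−1.34 ± 0.34, adjusted p = 0.00596) and SNR62 (−1.33 ± 0.38, adjusted p = 0.0227, all limma) had smaller changes. Of the 8 fits that leave out 1 library, the call held in 7 for SNR52, SNR53 and SNR39B, in 6 for SNR72 and in 2 for SNR62.

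These calls depend on how the error is estimated. On the scaled counts the same 5 changes, −2.28 for SNR53, −2.10 for SNR52, −1.29 for SNR39B, −1.20 for SNR72 and −1.19 for SNR62, had adjusted p between 0.399 and 0.578 (limma). Dividing every row by the snoRNA sum added the spread of that sum to every gene, and the SE of all 77 snoRNAs then lay between 0.29 and 0.41, whereas on the scaled counts it lay between 0.11 and 0.84. The SE of SNR53 was 0.82 and that of SNR52 0.84 on the scaled counts. With only the snoRNA rows divided, an alternative chosen after seeing the data, none of the 6 was called. Without the first GPD-SIR3 library none was called either.

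**Figure D2:**
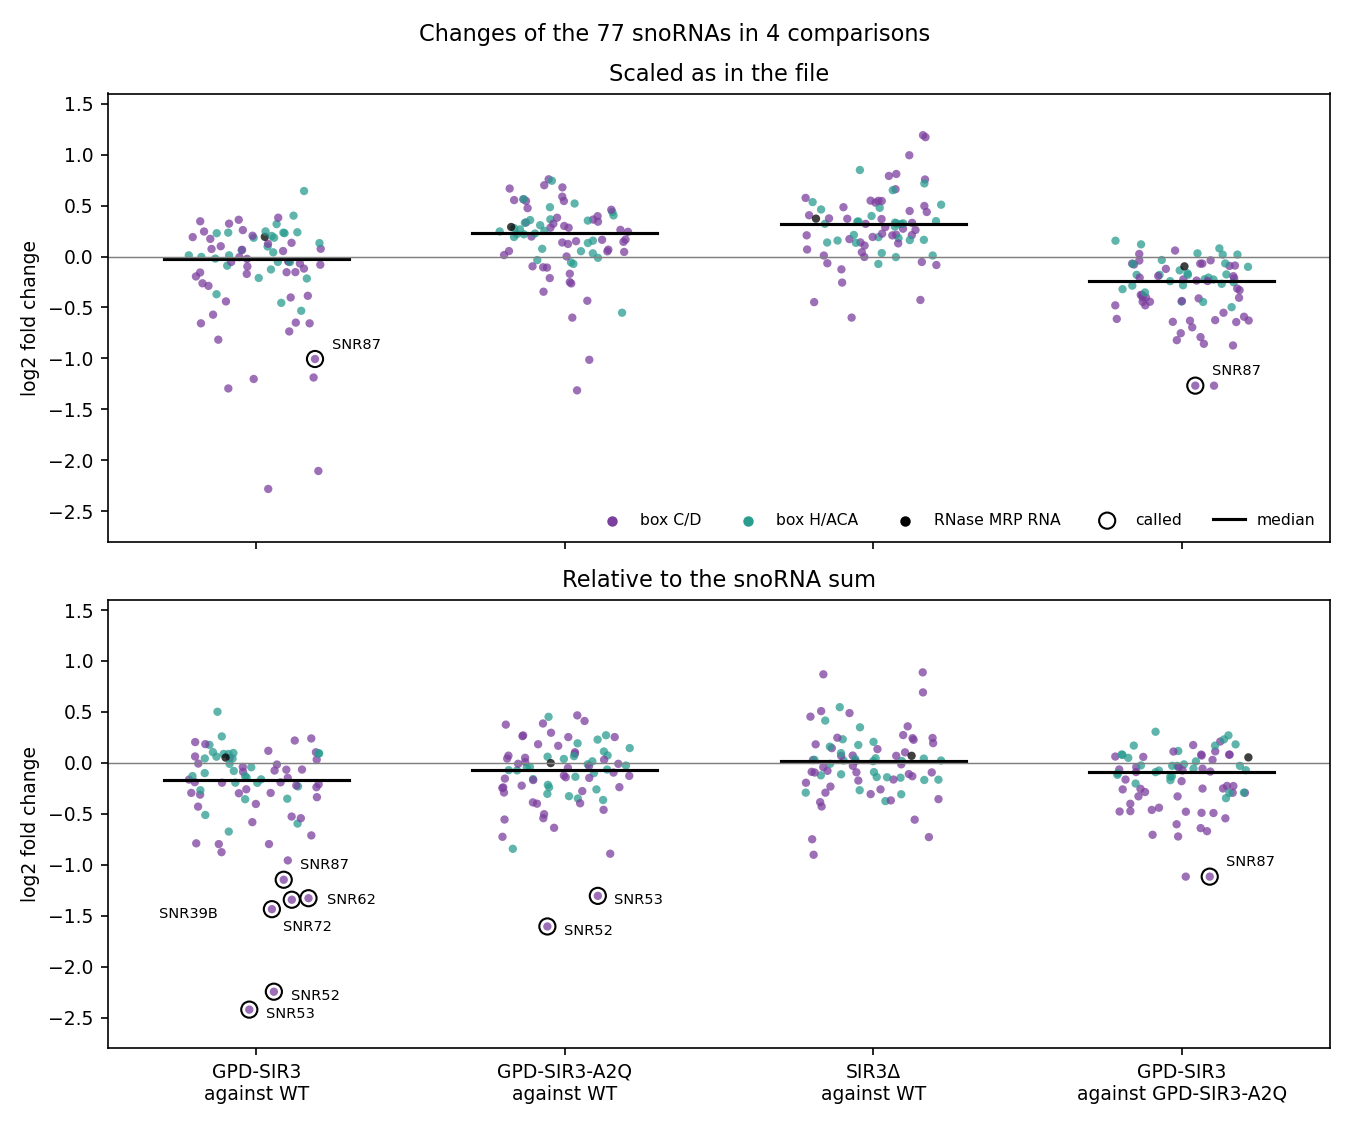
Log2 fold changes of the 77 snoRNAs in the 4 comparisons, on the scaled counts (top) and relative to the snoRNA sum (bottom). Points are snoRNAs by class, circled and named where the adjusted p was below 0.05, and the black line is the median, which was 0.32 on the scaled counts for SIR3Δ against WT.

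Over all 77 rows the changes of GPD-SIR3 against WT centred near 0 on the scaled counts. The median log2 change was −0.02 there, against 0.02 for all tested rows, and 35 of 77 were positive. The 2 groups of libraries did not overlap for 4 snoRNAs that were higher and 14 that were lower in GPD-SIR3, or 5.19% and 18.2%, against 18.4% and 16.8% of all tested rows. By share they did not overlap for 2 higher and 20 lower, or 2.60% and 26.0%, against 3.19% and 14.8%. By share the median change was −0.16, against −0.12 for all tested rows, and 22 of 77 were positive. The largest change upward was in SNR35, an H/ACA snoRNA annotated as the guide for a small-subunit uridine and named after its values were seen. SNR35 had 109074 and 119627 in GPD-SIR3, 111411 and 104842 in GPD-SIR3-A2Q, 82526 and 97392 in SIR3Δ and 80304 and 66647 in WT. Both pairs that overexpress a form of SIR3 lay above the other 4 libraries, and the change in GPD-SIR3 against WT was 0.64 ± 0.16 with an adjusted p of 0.13 (limma), while DESeq2, which called 0.327% of all tested rows higher and 2.02% lower, gave 0.0110. edgeR called SNR87 alone on the scaled counts, against 0.140% of all tested rows higher and 1.17% lower. By share, edgeR called 6 snoRNAs lower against 1.88% of all tested rows and DESeq2 called 1 lower against 1.62%, and they called none higher against 0.128% and 0.0934%.

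In GPD-SIR3-A2Q against WT no snoRNA passed the test on the scaled counts, whereas 0.0934% of all tested rows were called higher and 0.444% lower. Without adjustment 5 of 77 snoRNAs had p below 0.05 (limma). The share of all tested rows at that p was not counted, so this count does not mark a trait of snoRNAs. edgeR and DESeq2 called none, where they called 0.105% and 0.210% of all tested rows higher and 0.432% and 0.922% lower. All 5, SNR42, SNR17B, SNR35, SNR73 and SNR79, had positive changes, of 0.36 to 0.70. The median change was 0.23, against −0.03 for all tested rows, and 60 of 77 were positive. The groups did not overlap for 12 snoRNAs higher in GPD-SIR3-A2Q, or 15.6%, and 1 that was lower, or 1.30%, against 17.2% and 21.6% of all tested rows.

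The largest changes upward were in SNR69 and SNR9. SNR69, a guide for a large-subunit methylation, had 24695 and 13222 in GPD-SIR3, 23271 and 23661 in GPD-SIR3-A2Q, 19290.0 and 22154 in SIR3Δ and 20803 and 9254 in WT. SNR9, a guide for large-subunit pseudouridines, had 95879.8 and 57281 in GPD-SIR3, 93038 and 117597 in GPD-SIR3-A2Q, 125128 and 101167 in SIR3Δ and 89251 and 43711 in WT. In both, the second WT library was far below the first, and the WT pair was wider than the gap to GPD-SIR3-A2Q. The largest changes downward were in SNR52 (−1.31 ± 0.84) and SNR53 (−1.01 ± 0.82), where the GPD-SIR3-A2Q pair itself spanned most of the range.

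Relative to the snoRNA sum, SNR52 and SNR53 were called lower in GPD-SIR3-A2Q than in WT, against 1.12% of all tested rows lower and 0.117% higher. The log2 change was −1.61 ± 0.35 with an adjusted p of 8.01e-04 for SNR52 and −1.31 ± 0.38 with 0.0474 for SNR53 (limma). SNR53 made up 0.00670% and 0.0401% in GPD-SIR3-A2Q and 0.0408% and 0.0405% in WT. The second GPD-SIR3-A2Q library thus lay at the WT level for both snoRNAs, and without the first GPD-SIR3-A2Q library or without the first WT library neither was called. Of the 8 fits that leave out 1 library, the call on SNR52 held in 6 and that on SNR53 in 1. edgeR and DESeq2 called neither, where they called 0.140% and 0.0934% of all tested rows higher and 1.18% and 0.876% lower. The groups did not overlap for 7 snoRNAs higher and 11 lower by share, or 9.09% and 14.3%, against 2.43% and 31.4% of all tested rows. By share the median change was −0.07, against −0.32 for all tested rows, and 29 of 77 were positive. With only the snoRNA rows divided, SNR44 alone was called, at −0.84 with an adjusted p of 0.0456 (limma).

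**Figure D3:**
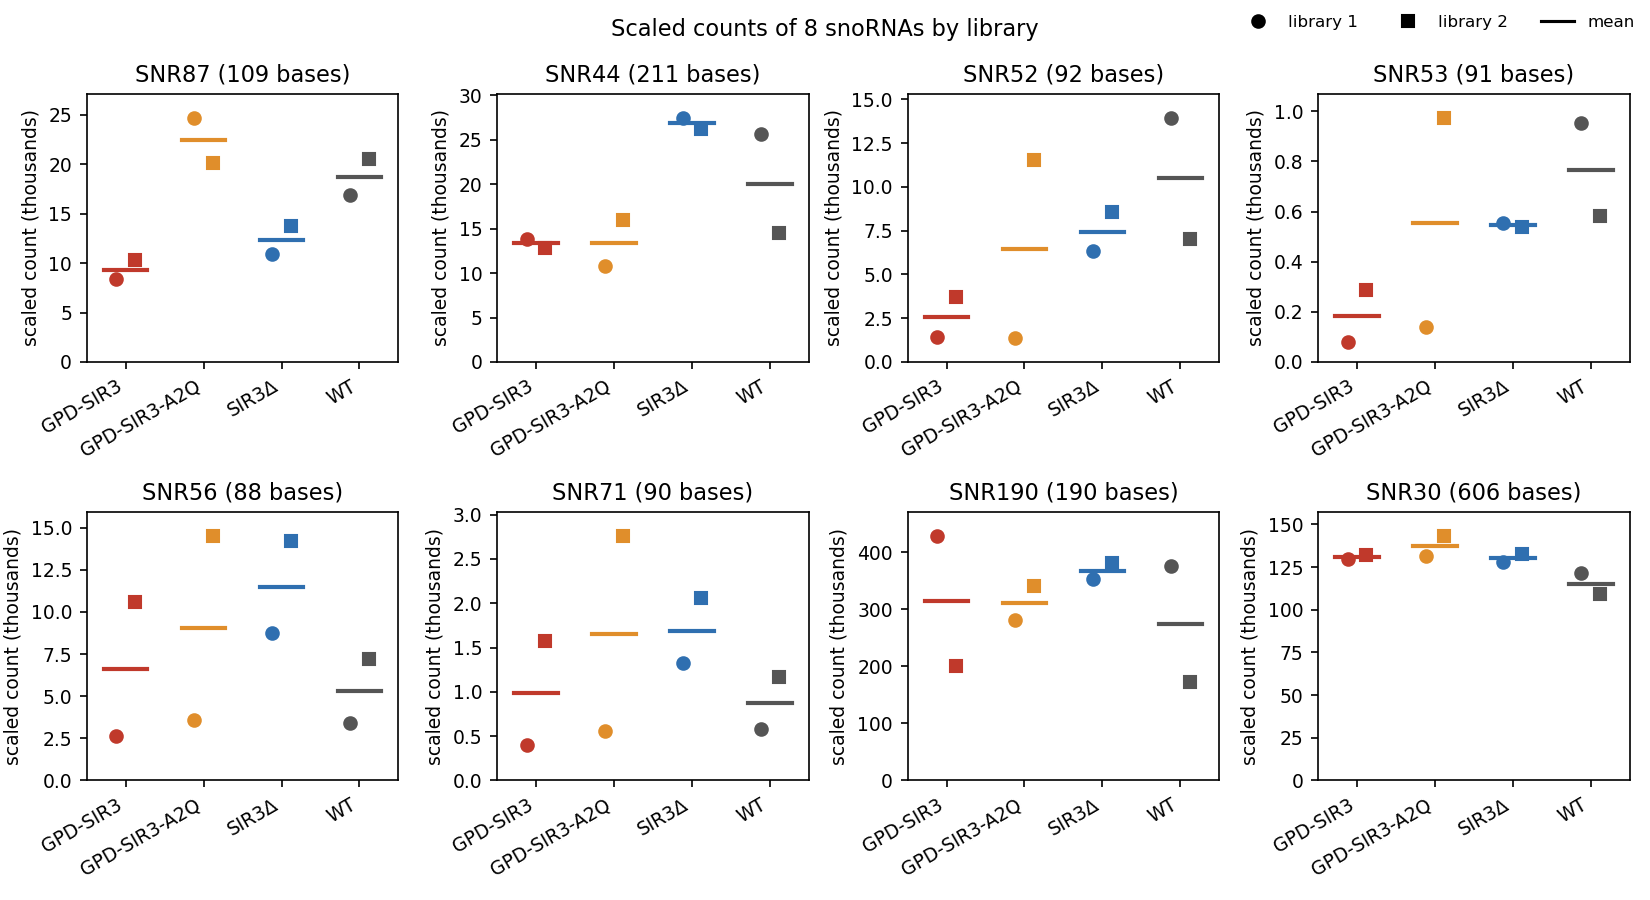
Scaled counts of 8 snoRNAs in each library, with the genotypes on the horizontal axis and lines at the group means. SNR87 is low in both GPD-SIR3 libraries (8347 and 10291), whereas in SNR52, SNR53, SNR56 and SNR71 the first and second libraries of both overexpressing genotypes differ widely.

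In SIR3Δ against WT no snoRNA passed the test on either scale. On the scaled counts 0.140% of all tested rows were called higher and 0.841% lower, and relative to the snoRNA sum 0.0934% and 1.06%. Without adjustment 3 snoRNAs on the first scale and 5 on the second had p below 0.05 (limma), and edgeR and DESeq2 called none on either. The share of all tested rows with an unadjusted p below 0.05 was not counted. edgeR called 0.140% and 0.117% of all tested rows higher on the first and second scale and 0.841% and 1.13% lower. DESeq2 called 0.210% and 0.0934% higher and 1.14% lower on both. The median change on the scaled counts was 0.32, against −0.05 for all tested rows, and 66 of 77 were positive. The groups did not overlap for 25 snoRNAs that were higher in SIR3Δ, or 32.5%, against 14.3% of all tested rows, and for 2 that were lower, or 2.60%, against 24.8%. By share they did not overlap for 8 higher and 11 lower, or 10.4% and 14.3%, against 3.05% and 35.9%. By share the median was 0.02 and 39 of 77 were positive, against −0.35 for all tested rows. The snoRNA sum was low in the second WT library, and its part in the shift was not tested.

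Among single snoRNAs, SNR66 and SNR56 had the largest changes upward in SIR3Δ against WT. SNR66, a C/D guide for the large subunit, had 564 and 1509 in GPD-SIR3, 649 and 1551 in GPD-SIR3-A2Q, 1590.3 and 1947 in SIR3Δ and 619.9 and 957 in WT. SNR56, a C/D guide for the small subunit, had 2668 and 10574 in GPD-SIR3, 3607 and 14482 in GPD-SIR3-A2Q, 8748 and 14224 in SIR3Δ and 3388 and 7238 in WT. In both the SIR3Δ pair lay above the WT pair without overlap, with changes of 1.19 ± 0.49 (adjusted p = 0.605) and 1.17 ± 0.74 (adjusted p = 0.796, limma). SNR87 (−0.60 ± 0.18, adjusted p = 0.341) and SNR53 (−0.45 ± 0.82, adjusted p = 0.951) had the largest changes downward.

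In GPD-SIR3 against GPD-SIR3-A2Q, SNR87 fell again and no other snoRNA passed the test. Its mean was 9319 ± 1375 in GPD-SIR3 against 22423 ± 3208 in GPD-SIR3-A2Q (SD, n = 2 each), a log2 change of −1.27 ± 0.18 with an adjusted p of 0.00589 (limma). Of all tested rows 1.32% were called lower and 0.490% higher. edgeR and DESeq2 also called SNR87 alone, where they called 1.17% and 1.61% of all tested rows lower and 0.479% and 0.992% higher. This comparison shares the GPD-SIR3 libraries with the one against WT, so its call is not a second measurement. It was lost without the first GPD-SIR3 library at an adjusted p of 0.0539 and without the first GPD-SIR3-A2Q library at 0.0706 (limma).

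Relative to the snoRNA sum, SNR87 alone was called lower as well, at −1.12 ± 0.33 with an adjusted p of 0.0368 (limma), against 1.55% of all tested rows lower and 0.689% higher. This call held in 3 of the 8 fits that leave out 1 library, and the adjusted p was 0.975 without the first GPD-SIR3-A2Q library (limma). On this scale edgeR called SNR53 and SNR87 lower, against 1.58% of all tested rows lower and 0.852% higher, and DESeq2 called none, against 1.34% and 0.642%. Over all snoRNAs the median on the scaled counts was −0.24, against 0.04 for all tested rows, and 8 of 77 were positive. The groups did not overlap for 11 snoRNAs that were lower in GPD-SIR3, or 14.3%, and 1 that was higher, or 1.30%, against 16.7% and 23.8% of all tested rows. By share they did not overlap for 8 lower and 2 higher, or 10.4% and 2.60%, against 7.59% and 25.3%. On the scaled counts 0 of the 17 polycistronic snoRNAs had a positive change. Relative to the snoRNA sum, which moved the median of all tested rows to 0.19, the snoRNA median was −0.09.

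How far the 8 libraries spread differed widely between snoRNAs, and shorter snoRNAs had more spread. The SD of log2(scaled count + 1) over the libraries had a median of 0.57 for 26 snoRNAs under 100 bases, 0.51 for 14 of at least 100 and under 150 bases and 0.29 for 37 of 150 bases or more. C/D snoRNAs had a median of 0.50 and H/ACA snoRNAs 0.29, and all 29 H/ACA rows were at least 161 bases long. Over all 77 the median was 0.41, against 0.27 for all tested rows. It was 0.13 for the 126 genes at or above the median snoRNA level, a bound that was not set for the snoRNAs themselves. Level went with length, with a median of the mean scaled counts of 1342 under 100 bases and 19045 at 150 bases or more. Class, length, level and genotype all enter these spreads, since the 8 libraries hold 4 genotypes, and the part of each was not tested.

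The widest spread was in SNR53, SNR52 and SNR71. SNR53 varied 12.2-fold and SNR52 10.1-fold between its lowest and highest library. SNR71, a C/D guide for the large subunit, had 405 and 1571 in GPD-SIR3, 562 and 2754 in GPD-SIR3-A2Q, 1322 and 2059.8 in SIR3Δ and 585 and 1172 in WT, a 6.80-fold range. In SNR71 and in SNR56 the second library was higher than the first in all 4 genotypes.

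The smallest spread was in SNR84, SNR59 and SNR33, and 1 of these is a short C/D snoRNA. SNR84, an H/ACA guide, had 8163 and 8758 in GPD-SIR3, 7696 and 7871 in GPD-SIR3-A2Q, 8032 and 8283 in SIR3Δ and 8460.0 and 7755 in WT, a 1.14-fold range. SNR33, another H/ACA guide, had 7088 and 7931 in GPD-SIR3, 7057 and 7629 in GPD-SIR3-A2Q, 6875 and 7430.2 in SIR3Δ and 8257 and 6845 in WT. SNR59, with 78 bases the shortest of all rows, had 235 and 223 in GPD-SIR3, 219.8 and 230.0 in GPD-SIR3-A2Q, 243 and 265 in SIR3Δ and 244 and 239.9 in WT, a 1.21-fold range. SNR59 lies inside an intron, and the 5 intronic C/D snoRNAs under 100 bases had a median SD of 0.14, against 0.65 for the 21 of that length outside introns. The SD ranged from 0.09 to 0.44 in the first set and from 0.19 to 1.29 in the second. How far reads from the surrounding genes enter the intronic rows was not tested.

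**Figure D4:**
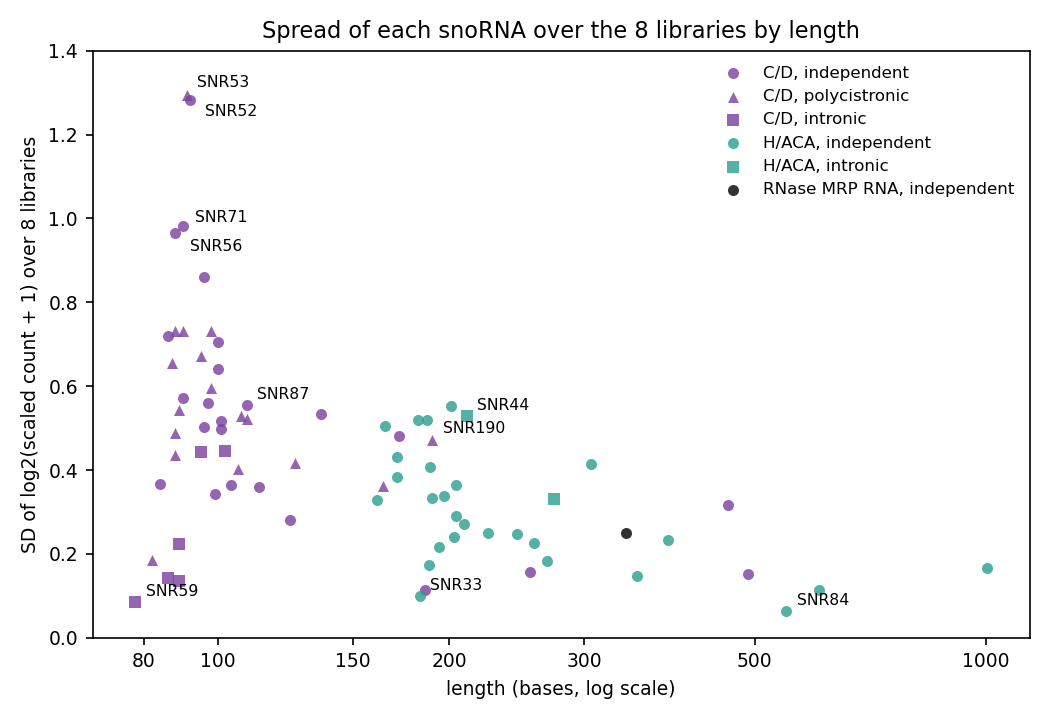
Spread of each snoRNA over the 8 libraries, as the SD of log2(scaled count + 1), against the length of its row in bases on a log axis. Colours give the class, symbols the genomic class. SNR53 and SNR52 lie at the top, long rows lie low, and SNR59, an intronic snoRNA of 78 bases, lies at 0.09.

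The 8 intronic snoRNAs lie in EFB1 (SNR18), ASC1 (SNR24), TEF4 (SNR38), RPL7A (SNR39), RPS22B (SNR44), IMD4 (SNR54), RPL7B (SNR59) and NOG2 (SNR191). The hosts encode translation elongation factors, ribosomal proteins, a ribosome-bound protein, an IMP dehydrogenase and a ribosome assembly GTPase. In all 64 pairs of host and library the host row had more scaled counts than its snoRNA, and the snoRNA lies within the host row. SNR18 equalled 83.6% to 92.5% of the EFB1 row, SNR44 84.9% to 93.5% of RPS22B and SNR191 90.4% to 95.9% of NOG2. The other shares were 17.9% to 33.3% for SNR38 of TEF4, 17.1% to 25.8% for SNR59 of RPL7B, 12.8% to 16.9% for SNR39 of RPL7A, 7.03% to 10.3% for SNR24 of ASC1 and 6.31% to 8.21% for SNR54 of IMD4.

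Reading such a share as part of the host row, or the host row minus the snoRNA row as the rest of the host, assumes that every snoRNA read was also counted in the host, which was not tested. On that assumption, each snoRNA row was set against the rest of its host per base. The ratio was 0.97 to 7.74 for SNR24, SNR54, SNR39, SNR59 and SNR38, and 32.6 to 146 for SNR18, SNR44 and SNR191. How much of the signal in these rows comes from host RNA was not tested. SNR18 had 95438 and 51340.0 in GPD-SIR3, 105409 and 62680.4 in GPD-SIR3-A2Q, 49586 and 82334 in SIR3Δ and 64695 and 46901 in WT, a 2.25-fold range, while the EFB1 row minus the SNR18 row varied 1.27-fold, between 7823 and 9942. SNR18 was highest in the first GPD-SIR3-A2Q and the first GPD-SIR3 library and showed no order by genotype. The 8 intronic snoRNAs together equalled 1.21% to 2.01% of the gene sum to which every library was scaled.

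SNR44, the H/ACA snoRNA of RPS22B and a guide for both rRNAs, had 13834 and 12841 in GPD-SIR3, 10832 and 15978 in GPD-SIR3-A2Q, 27472 and 26257 in SIR3Δ and 25637 and 14502 in WT. Both SIR3Δ libraries lay above all others, and 3 of the 4 libraries that overexpress a form of SIR3 lay below both WT libraries. The RPS22B row minus the SNR44 row gave 1309.5 and 1412 in GPD-SIR3, 1166 and 1109 in GPD-SIR3-A2Q, 2521 and 2454 in SIR3Δ and 2314 and 2589 in WT. All 4 libraries that overexpress a form of SIR3 lay below the other 4 in this difference, which was named after its values were seen and was not tested. Against WT on the scaled counts, the log2 change of SNR44 was −0.53 ± 0.26 for GPD-SIR3, −0.55 ± 0.26 for GPD-SIR3-A2Q and 0.48 ± 0.26 for SIR3Δ, with adjusted p between 0.621 and 0.74 (limma). The other 6 intronic snoRNAs were not called in any comparison, with changes on the scaled counts between −0.66 (SNR38 in GPD-SIR3 against WT) and 0.35 (SNR191 in SIR3Δ against WT).

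The polycistronic snoRNAs are cut from a shared precursor, and members of 1 cluster still differed in level and in pattern. The cluster SNR72 to SNR78 on chromosome XIII holds 7 C/D snoRNAs of 87 to 109 bases. SNR73 was the highest of them, with 20307 and 16059 in GPD-SIR3, 24007 and 31747 in GPD-SIR3-A2Q, 21512 and 29518 in SIR3Δ and 21440.0 and 13880.3 in WT. SNR75 was the lowest, with 119 and 260.0 in GPD-SIR3, 152 and 324 in GPD-SIR3-A2Q, 283 and 339 in SIR3Δ and 179 and 250.5 in WT. Per kilobase the SNR73 row averaged 210459.9 scaled counts and the SNR75 row 2677.

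Among the others in that cluster, SNR72 had 3834 and 3261 in GPD-SIR3, 3502 and 11707 in GPD-SIR3-A2Q, 7794 and 7884 in SIR3Δ and 10926 and 6057 in WT. SNR76 had 3773 and 4725 in GPD-SIR3, 3949 and 8270.0 in GPD-SIR3-A2Q, 7002 and 6869.7 in SIR3Δ and 8477 and 3589 in WT. SNR77 had 1068 and 2903 in GPD-SIR3, 1315 and 3142 in GPD-SIR3-A2Q, 2107 and 3658 in SIR3Δ and 1013 and 2539 in WT. In SNR72 and SNR76 the first WT library was far above the second, while in SNR77 it was far below. SNR74 ranged from 260.5 to 594 and SNR78 from 492 to 1870.5. Both had their lowest value in the first GPD-SIR3 library and their highest in the second GPD-SIR3-A2Q library. SNR72 was the only member of the cluster called by limma with all 8 libraries, and then only relative to the snoRNA sum. Without the first GPD-SIR3-A2Q library it was also called lower on the scaled counts in GPD-SIR3 against GPD-SIR3-A2Q, at a log2 change of −1.73 with an adjusted p of 0.0476 (limma).

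In the other clusters, SNR190 and SNR128 ranged over 2.49-fold and 2.23-fold, SNR41, SNR70 and SNR51 over 4.03-fold, 2.02-fold and 2.69-fold, and SNR57, SNR55 and SNR61 over 2.64-fold, 3.48-fold and 4.48-fold. SNR67, which guides a methylation of large-subunit rRNA, lies in 1 cluster with SNR53 and had 408 and 487 in GPD-SIR3, 413 and 506 in GPD-SIR3-A2Q, 610.1 and 449 in SIR3Δ and 444 and 462 in WT. SNR67 had the smallest and SNR53 the widest range of the 17 polycistronic snoRNAs.

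**Figure D5:**
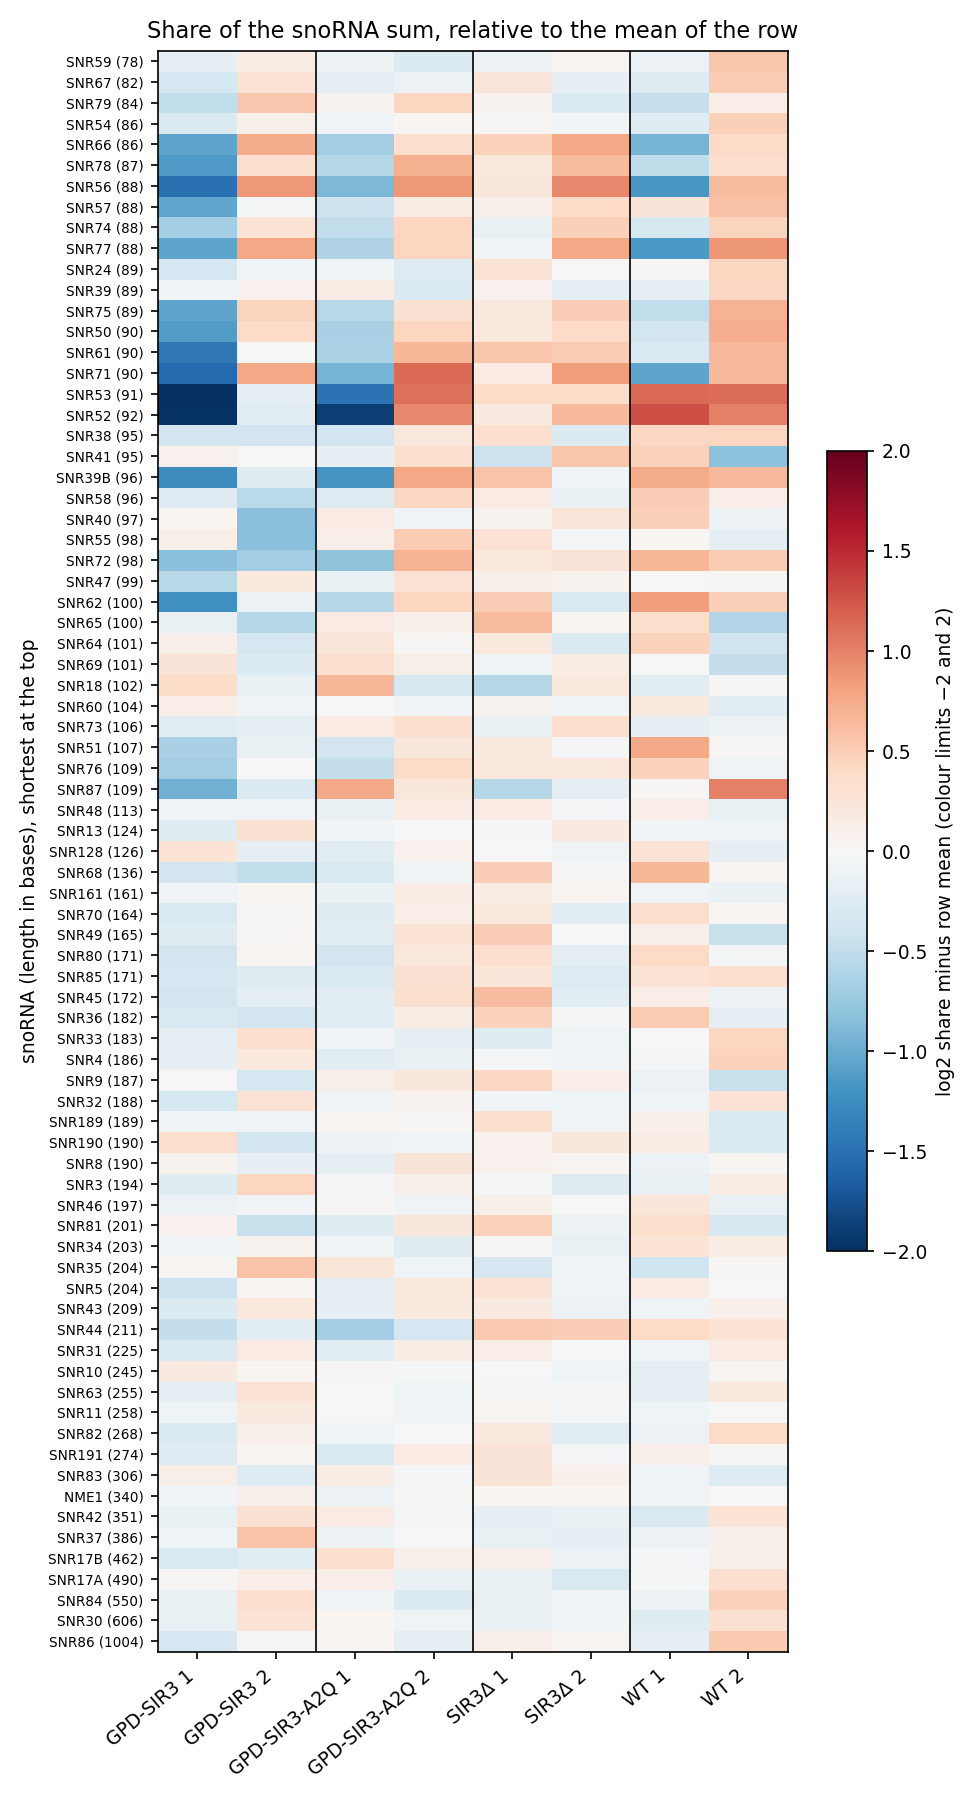
Share of the snoRNA sum for each of the 77 snoRNAs (rows, shortest at the top, length in bases in brackets) in each library (columns), as log2 minus the mean of the row. The strongest colours lie in the short C/D snoRNAs at the top, in the first libraries of GPD-SIR3 and GPD-SIR3-A2Q, while most rows over 200 bases are pale.

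Some snoRNA rows overlap other rows, and how reads touching both were counted was not tested. CUT677, a cryptic unstable transcript, overlaps the end of SNR190 by 3 bases, and SNR190 equalled 134% to 176% of the CUT677 row. The small gene YJL047C-A overlaps SNR60 by 49 bases, and SNR60 equalled 110% to 116% of it. Both rows were named after their values were seen. In all, 10 snoRNA rows overlap another row on the same strand and 10 a row on the other strand.

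The protein genes that make snoRNA particles were not called in any comparison, and the lists were taken whole. The C/D core proteins NOP1, NOP56, NOP58 and SNU13 had changes between −0.18 and 0.10, and the H/ACA core proteins CBF5, NHP2, NOP10 and GAR1 between −0.15 and 0.22, over all 4 comparisons on the scaled counts. NOP1, the methyltransferase, averaged 4645 ± 558 in GPD-SIR3, 5155 ± 50.2 in GPD-SIR3-A2Q, 5015 ± 171 in SIR3Δ and 4825 ± 238 in WT (SD, n = 2 each). CBF5, the pseudouridine synthase, averaged 3230 ± 315 in GPD-SIR3, 3376 ± 79.8 in GPD-SIR3-A2Q, 3436 ± 91.4 in SIR3Δ and 3593 ± 371 in WT (SD, n = 2 each). The smallest adjusted p over the 4 comparisons was 0.657 among the C/D core proteins and 0.677 among the H/ACA core proteins (limma).

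None of 9 assembly factors, 16 processing and termination factors and 8 host genes was called either. For EFB1, RPS22B and NOG2 the snoRNA row equalled 83.6% to 95.9% of the host row. The tests on these host rows may therefore largely repeat those on SNR18, SNR44 and SNR191, and the rest of each host was not tested. Median changes of these 3 lists lay between −0.15 and 0.16 over the 4 comparisons. At an unadjusted p below 0.05 (limma), at most 1 gene of each list passed in any comparison, and 0 of the 8 core proteins. The share of all tested rows at that p was not counted. The assembly factor TAH1, part of the complex that loads C/D core proteins, had the smallest unadjusted p of its list and was named after its values were seen. TAH1 averaged 94.6 ± 3.28 in SIR3Δ and 135 ± 2.21 in WT (SD, n = 2 each), with an adjusted p of 0.485 (limma).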

How the data were processed

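Total RNA-seq libraries, made with a SOLiD kit from size-selected fragments and read in pairs of 50 and 35 bases, were analysed from 1 deposited table, per the labels. Its value columns hold a signal that the authors made, per the file headers as read counts, by multiplying the reads of each library by 1 factor. TopHat 1.4.1 and build R64 are named per the submitters' processing notes, while the sources used here do not name the counting tool or say whether it used strand. Dividing the deposited signal by the value of 1 read gave whole read counts for 100% of values, within 0.01 of a read. A further 16 per-sample columns were not used.

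Values were filtered at 10 or more in at least 2 libraries, which left 8566 rows, and log2(value + 1) was fitted over all 8 libraries with limma 3.58.1 in R 4.3.3, with Benjamini-Hochberg adjustment over all tested rows and a threshold of 0.05. Fold changes are on the log2(value + 1) scale. The same fit was made after every row was divided by the library's snoRNA sum. The recovered counts were tested with edgeR 4.0.16 and DESeq2 1.42.0 as alternatives, and other scalings, filters and sample sets were tried. The limma fit on scaled counts was run on simulated data for the comparisons against WT, with changes planted in rows other than snoRNAs. The other steps were not tested in this way.

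Reads of gene rows numbered 7006670 to 18077542 per library. Replicate libraries differed by more than sampling noise, with a chi-square per degree of freedom of 25.6 to 74.7 over all rows. Over the snoRNA rows alone it was 1455 (SIR3Δ) to 2067 (WT). Same-numbered libraries were not tied by the labels, and the numbers were not used as pairs. All 77 coordinates equal those of the R64 annotation. Classes and roles were taken from a separate list of snoRNAs, and NME1 was classed by hand. The box class equalled the one read from the note of the row in 74 of 77 rows. The genes named are the 5 snoRNAs with the highest and the 5 with the lowest mean share, those of rRNA cleavage, those called, the 2 largest changes each way where none was called, the 3 largest and 3 smallest spreads, the intronic snoRNAs and the SNR72 to SNR78 cluster. Members, lists and tests were chosen with earlier results of these data known.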

Additional observations from a re-analysis of the deposited data

How the results depend on the processing

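On the scaled counts, the 1 snoRNA called in GPD-SIR3 against WT became 2 with DESeq2 (SNR35 higher, SNR87 lower) and 0 with non-coding rows only or only the 2 groups, and 0 to 1 with 1 library left out. The 1 called in GPD-SIR3 against GPD-SIR3-A2Q was 0 to 1, and the 1 without the first GPD-SIR3-A2Q library was SNR72, not SNR87. Relative to the snoRNA sum, the 6 in GPD-SIR3 against WT became 1 with DESeq2, 3 with non-coding rows only, 0 with only snoRNA rows divided and 2 with only the 2 groups, and 0 to 7 with 1 library left out. The 2 in GPD-SIR3-A2Q against WT became 0 with DESeq2, edgeR, non-coding rows only or only the 2 groups, 1 with only snoRNA rows divided, and 0 to 3 with 1 library left out. The 0 in SIR3Δ against WT was 0 to 3, with SNR87 lower (adjusted p = 0.00222, limma) without the first WT library and 3 higher without the second. The 1 in GPD-SIR3 against GPD-SIR3-A2Q became 0 with DESeq2, a mean of at least 50, a median of ratios, no filter, non-coding rows only or only snoRNA rows divided, 2 with edgeR, and 0 to 5 with 1 library left out. The log2 ratio of the snoRNA sums with 1 library left out was −0.20 to 0.50 for GPD-SIR3, −0.053 to 0.65 for GPD-SIR3-A2Q and −0.047 to 0.65 for SIR3Δ, each against WT. The causes were not tested. Apart from the main fits, edgeR and DESeq2, the share of all tested rows called under each setting was not counted. The snoRNA counts under the other settings therefore have no background beside them. With a replicate block the counts were 1, 0, 0 and 1 on the scaled counts and 6, 2, 0 and 1 relative to the snoRNA sum, in the order above with GPD-SIR3 against GPD-SIR3-A2Q last, so it changed none of them. Deviations of same-numbered libraries correlated between −0.03 and 0.35 over 8566 rows in the 6 pairs of genotypes, and between 0.15 and 0.69 over the 77 snoRNAs. The numbers were not used as pairs, since not every pair was over 0.1 over all rows.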

Other observations

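Some snoRNAs differed by library number in every genotype. As a share of the snoRNA sum, 10 of 77 were higher in the second library than in the first in all 4 genotypes, and all 10 are C/D snoRNAs of 86 to 106 bases. They were SNR73, SNR56, SNR77, SNR57, SNR71, SNR66, SNR78, SNR50, SNR74 and SNR75. On the scaled counts 8 were. By share, 5 were lower in the second library in all 4 genotypes, SNR83, SNR60, SNR189, SNR64 and SNR65. On the scaled counts 3 others were, SNR17A, SNR17B and SNR39. These names were chosen after the values were seen, and no test was made. The share of all tested rows that went the same way in all 4 genotypes was not counted. These counts therefore have no background beside them and do not mark a trait of snoRNAs. Over the 77 snoRNAs, which share library and depth, deviations of same-numbered libraries from their group means correlated between 0.15 and 0.69.

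With 2 libraries a genotype, and a WT pair that differed more in its snoRNA sum than the pair of any other genotype, every snoRNA call was lost when some 1 library was left out. Whether the libraries of a genotype are separate cultures, and whether libraries with the same number were made together, is not in the labels. The 26 snoRNAs under 100 bases are shorter than the RNA fragments used, and 40 are under the 150 bases set after reverse transcription. The values of short snoRNAs thus describe what these libraries caught.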
